A study of Homo sapiens with 2 samples.

Results

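The transcripts described here encode the ligands and receptors of the classical axon guidance families, measured in H9 human embryonic stem cells in 2 states that the study calls substates. The genes were taken by name and cover semaphorins 3 to 7, plexins, neuropilins, ephrins, EPH receptors, slits, ROBO receptors, netrins and the netrin receptors of the UNC5 family, DCC and NEO1. Of the 72 such genes 71, among 22439 named genes in all, were found on the array through the RefSeq accession of a probe. They have 101 of the 58201 non-control probes. NTN5 was matched to no probe and is not analysed here.

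H9 is an established human embryonic stem cell line. Substate 1 cells came from passage 35 and substate 2 cells from passage 50, and each substate was measured on 1 single-colour Agilent array with Cy3-labelled RNA. Both were kept in the serum-free medium TeSR-E8 on Matrigel, an extracellular matrix preparation to which, per the methods, the line was moved from vitronectin at passage 35. Substate, passage and time on Matrigel therefore cannot be told apart. The study defined substate 1 by strong R-10G staining without vimentin, and substate 2 by weaker R-10G staining with vimentin. How the cells were separated before RNA extraction for these arrays is not given in the sources used here. With 1 array per substate there is no replicate, no test between the substates was possible, and every difference below compares these 2 RNA samples.

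Guidance ligands tell a growing axon where to turn. Semaphorins act through plexins, which for most class 3 semaphorins work together with neuropilins, whereas slits act through ROBO receptors and netrins attract through DCC and repel through UNC5 receptors. Ephrins stay on the cell surface and bind EPH receptors on the neighbouring cell, and signals pass in both directions across that contact. In embryos the same families also set tissue boundaries, blood vessel paths and neural crest migration, and many are transcribed outside the nervous system.

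A level is given as the normalised log2 signal of a probe, on which 0 is the 75th percentile of the probes on that array, and a difference is substate 2 minus substate 1 on that scale. The value of a gene is the mean over those of its probes that both arrays showed well above background, which is what "measured" means below. Because probes bind with different strength, levels are compared between arrays and not between probes. A lower value can stand for fewer cells with the transcript or for less transcript per cell, and the bulk RNA cannot tell these apart. The arrays shared a slide and a scan and differed in position. Well above background were 57.4% of non-control spots for substate 1 and 54.7% for substate 2, and no spot was saturated. The number of arrays limits the precision, and only 2 guidance probes were printed 10 times. Over the 291 probes printed 10 times and well above background, the difference between single spots had a median SD of 0.07. It was 0.24 for the 7 of these probes with a mean level under -2, where spot noise was larger.

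Most guidance genes gave a measurable signal in these stem cells, as most named genes did. Of the 101 guidance probes 72 (71.3%) were well above background on both arrays, near the 68.5% of probes with a gene name and above the 51.3% of all probes, which include many noncoding ones. A further 6 were well above background in substate 1 only, 2 in substate 2 only and 21 on neither array. In all, 80 guidance probes (79.2%) passed the background limit on 1 or both arrays, against 57.0% of all probes. This left 58 of the 71 genes (81.7%) measured on both arrays, against 71.3% of all named genes. The 10 genes whose probes were near background on both arrays were SEMA3C, SEMA3E, SEMA6D, PLXNA2, PLXNC1, EPHA5, EPHA6, ROBO4, NTN3 and DCC. They include the attractive netrin receptor DCC and the endothelial receptor ROBO4. No fold is given for these genes.

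**Figure D1:**
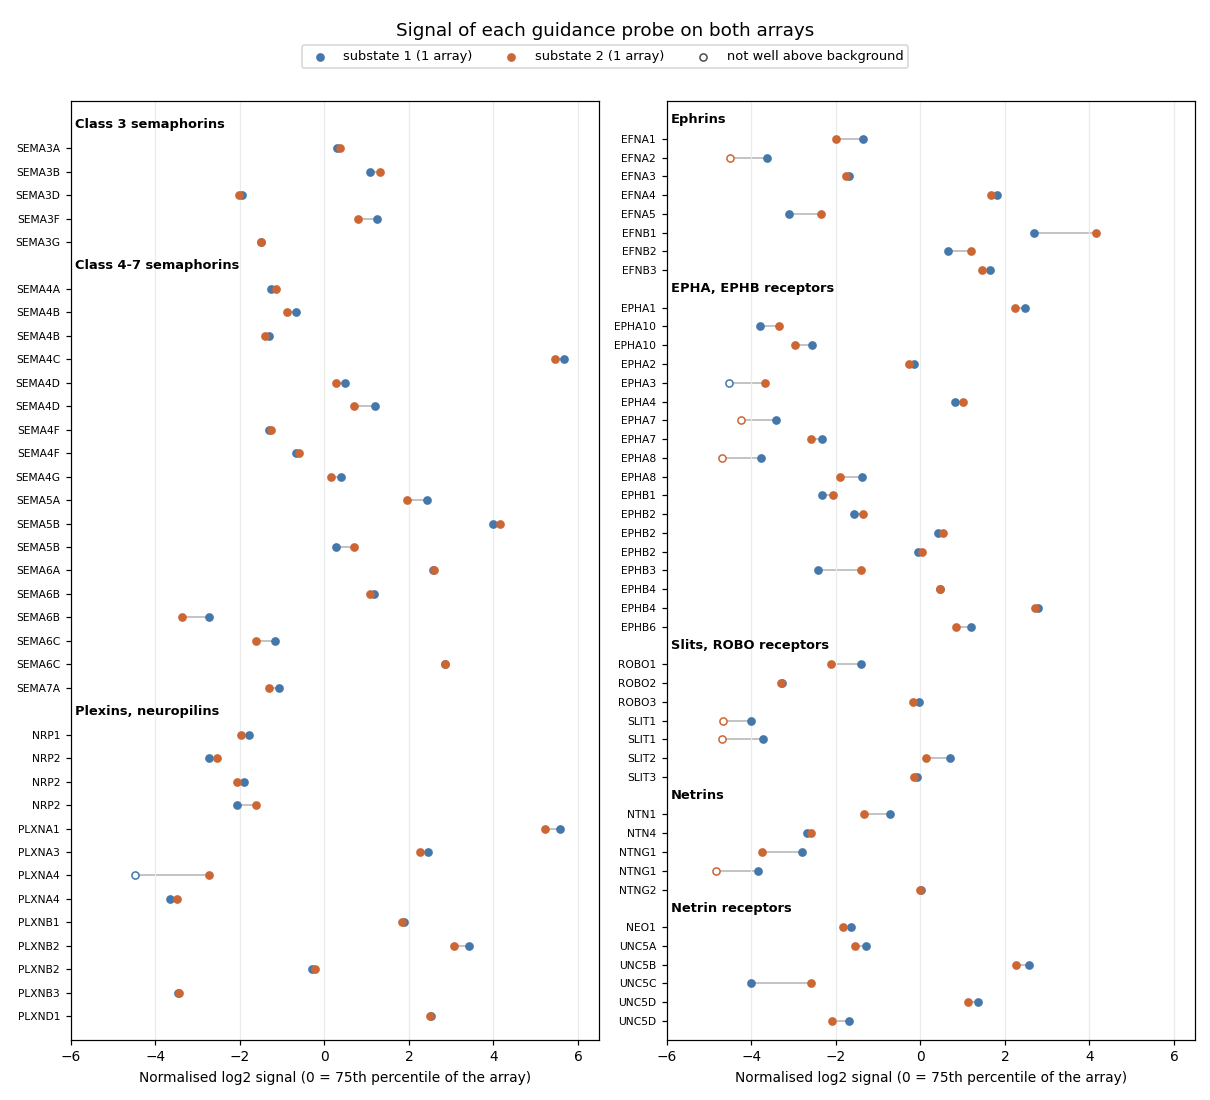
Normalised log2 signal (horizontal axis, 0 at the 75th percentile of the array) of the 80 guidance probes that stood well above background on 1 or both arrays, with substate 1 in blue and substate 2 in orange. Open circles were not well above background on that array. The widest gaps toward substate 2 are those of EFNB1, UNC5C, EPHB3 and a PLXNA4 probe, and the NTNG1 probes lie lower in substate 2.

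Among the 58 measured genes 3 were 2-fold or more higher in substate 2 (5.17%, against 0.931% of all 16001 measured genes), namely EFNB1, UNC5C and EPHB3. When normexp was run on the median spot signals in place of the processed ones, 1 gene, EFNB1, passed 2-fold. None was 2-fold lower, where the share of all genes was 1.07%. At 1.5-fold, 4 genes (6.9%) were higher, against 4.32% of all genes, and 4 genes (6.9%) were lower, against 5.03%. EFNA5 joined the higher genes, and NTNG1, ROBO1, EFNA1 and NTN1 made up the lower ones. The other 50 measured genes differed by less than 1.5-fold, and their values lay mostly on the lower side. These gene values leave out probes that passed the background limit on 1 array only. Such a probe of PLXNA4 (at least 3.28-fold higher) and one of EPHA7 (at least 1.70-fold lower) differed by more. An "at least" fold, here and below, is a bound under the main processing and not a firm floor. Under normexp those of PLXNA4 and EPHA7 were 1.47-fold and 1.08-fold. The median difference of the guidance genes was -0.13, against 0.08 for all measured genes, and 20 of the 58 (34.5%) were above 0, against 59.8% of all genes. Below the median of all genes lay 44 of the 58 (75.9%), where 50.0% of all genes lie by definition. The shift was alike in the 30 ligands, with a median of -0.12, and the 28 receptors, with a median of -0.13. The SD between the guidance genes was 0.44, against 0.38 between all measured genes.

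**Figure D2:**
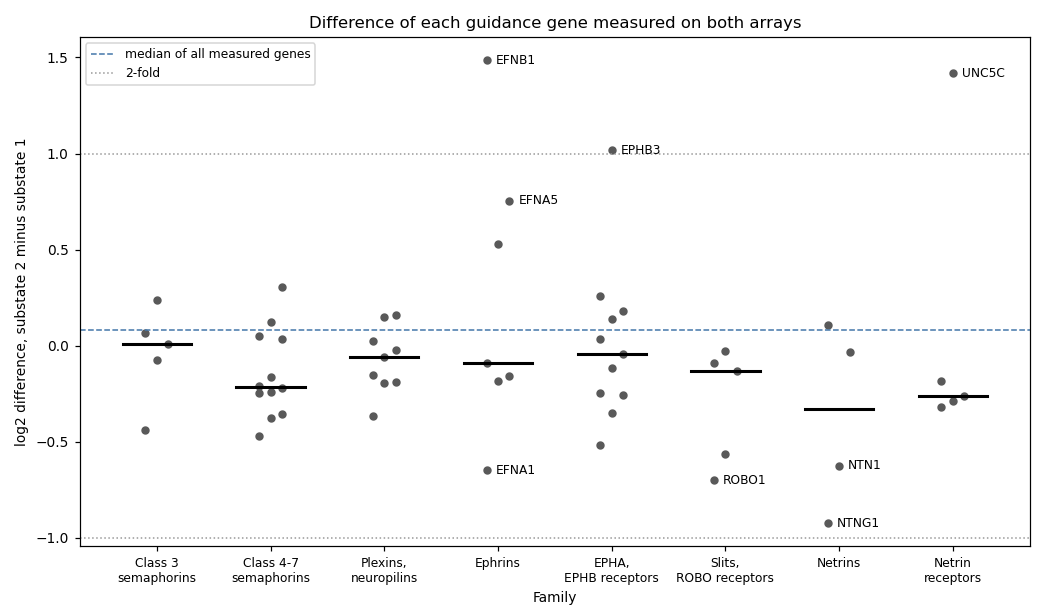
log2 difference, substate 2 minus substate 1 (vertical axis), of the 58 guidance genes measured on both arrays, 1 point per gene, by family, with a bar at the family median. The dashed line is the median of all measured genes (0.08) and the dotted lines mark 2-fold. EFNB1, UNC5C and EPHB3 lie above the upper dotted line, no gene lies below the lower one, and all slit and ROBO genes lie below the dashed line.

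By the Z-score of the study, which runs over all probes, 5 guidance probes (4.95%) reached the upper limit of 2, against 3.03% of all probes. No guidance probe reached the lower limit of -2, against 3.3% of all probes. That count of 0 depended on the setting, and was 7 under normexp, 8 with the Z-score set by probes measured on both arrays and 11 with an SD from the median absolute deviation. Of the 5 probes 2 were well above background on both arrays, those of EFNB1 and UNC5C. The other 3 were PLXNA4 probes, of which 1 was well above background in substate 2 only and 2 were near background on both arrays. By the rule of 2-fold, applied to probes that either array measured, 4 of 80 guidance probes (5.0%) were higher, against 1.55% of all such probes, and 0 were lower, against 1.67%. Those 4 belonged to EFNB1, UNC5C, EPHB3 and PLXNA4. Among the 72 probes measured on both arrays 3 (4.17%) were 2-fold higher, against 0.85% of all such probes, and 0 were lower, against 1.26%.

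Sequence just upstream of the annotated start is shown for these 4 genes, since they carry the higher values. Each sequence is 250 bases from RefSeq (GRCh38.p14), 5′ to 3′ on the strand of the gene and ending at the base before the start. The hexamer CACCTG, the E-box that ZEB and SNAI repressors bind, was searched on both strands. The windows are chrX:68828771-68829020 (plus strand) for EFNB1, chr3:184561535-184561784 (plus) for EPHB3, chr4:95548974-95549223 (minus) for UNC5C and chr7:132576471-132576720 (minus) for PLXNA4.
EFNB1: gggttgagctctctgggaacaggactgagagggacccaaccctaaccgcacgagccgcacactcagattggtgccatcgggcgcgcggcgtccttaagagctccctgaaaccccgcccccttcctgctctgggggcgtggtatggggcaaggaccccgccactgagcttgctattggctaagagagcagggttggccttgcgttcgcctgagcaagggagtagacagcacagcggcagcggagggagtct
EPHB3: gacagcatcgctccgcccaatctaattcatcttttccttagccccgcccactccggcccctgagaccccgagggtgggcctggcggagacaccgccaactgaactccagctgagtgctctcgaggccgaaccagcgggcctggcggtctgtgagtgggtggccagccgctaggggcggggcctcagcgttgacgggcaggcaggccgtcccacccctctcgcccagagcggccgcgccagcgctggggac
UNC5C: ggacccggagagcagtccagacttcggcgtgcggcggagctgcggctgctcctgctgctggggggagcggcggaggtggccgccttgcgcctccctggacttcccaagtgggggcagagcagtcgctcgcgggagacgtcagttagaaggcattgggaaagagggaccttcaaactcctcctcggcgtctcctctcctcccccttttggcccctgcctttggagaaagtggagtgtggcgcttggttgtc
PLXNA4: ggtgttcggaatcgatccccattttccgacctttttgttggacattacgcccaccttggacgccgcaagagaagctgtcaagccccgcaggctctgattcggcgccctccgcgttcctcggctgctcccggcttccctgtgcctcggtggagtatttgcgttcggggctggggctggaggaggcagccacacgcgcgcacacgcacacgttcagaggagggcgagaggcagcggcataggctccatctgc
None of the 4 stretches holds it, so no base is in capitals. Among all 94 guidance promoter windows of 300 bases, from 250 before to 50 after a start, 17 (18.1%) had the hexamer on either strand, against 20.6% of the 35116 windows of all genes. The latter were not limited to protein-coding genes. By gene value, the genes 1.5-fold or more higher were EFNB1, UNC5C, EPHB3 and EFNA5, without PLXNA4, and the hexamer was in 0 of their 4 windows. It was in 1 of 6 windows of the genes 1.5-fold or more lower, a ROBO1 window. Those 6 windows belong to 3 genes, since NTN1 had none. Windows were found for 60 of the 71 genes, some with several starts. A match describes letters and not binding.

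Ephrins spread more widely than any other ligand family measured here, with values from -0.65 to 1.48. EFNB1, a transmembrane ephrin whose loss causes craniofrontonasal syndrome, had a level of 2.68 in substate 1 and 4.16 in substate 2. This 2.80-fold higher value (difference 1.48, Z-score 2.23) ranked 37 among the 16001 measured genes, and it rests on 1 probe with raw signals of 2009 and 4936, far from background. EFNB2, a transmembrane ephrin of arteries and neural tissue, went from 0.66 to 1.19 (1.44-fold higher). EFNB3, another ephrin-B gene, went from 1.64 to 1.45, a difference in the other direction.

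The ephrin-A ligands are anchored in the membrane by a lipid, and 3 of the 4 measured ones were below 0, all but EFNA5. EFNA5, a repellent of retinal axons, was at -3.11 in substate 1 and -2.35 in substate 2 (1.69-fold higher). EFNA1, known from endothelial and epithelial cells, was at -1.36 and -2.01 (1.57-fold lower). Its probe is 1 of the 2 printed 10 times, and its spots ran from -1.49 to -1.23 in substate 1 (SD 0.09, 9 spots) and from -2.15 to -1.89 in substate 2 (SD 0.11, 10 spots). The spots of the arrays did not overlap, although spots of 1 array share the same RNA. EFNA3 (-0.09) and EFNA4 (-0.16) lay closer to 0. EFNA2 was near background in substate 2, at -4.51 against -3.64 in substate 1, and at least 1.47-fold lower there. EFNA4, EFNA3 and EFNA1 lie in this order on chromosome 1, with 1 gene between EFNA4 and EFNA3, and the difference of EFNA1 was the largest in size of these 3.

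Of the EPH receptors, which are receptor tyrosine kinases, 11 of 14 were measured. EPHB3, a receptor for ephrin-B ligands, was at -2.43 in substate 1 and -1.41 in substate 2 (difference 1.02, 2.02-fold higher, rank 144). Its raw signals were 58.4 and 103.7, its Z-score of 1.49 was inside the limits, it has 1 probe, and its difference was 0.56 under normexp. The other EPHB receptors lay closer to 0, with EPHB1 at 0.26, EPHB2 at 0.14 over probes that ranged from 0.10 to 0.22, EPHB4 at -0.04 and EPHB6, which lacks kinase activity, at -0.35. The 5 EPHB genes had a median of 0.14 and the 6 measured EPHA genes one of -0.18.

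EPHA8 had the lowest value among the measured EPH genes, at -1.39 in substate 1 and -1.91 in substate 2 (1.43-fold lower). By its other probe, which substate 2 showed near background, it was at least 1.35-fold lower. EPHA7 was at -2.34 and -2.59 by its measured probe, and by another probe at least 1.70-fold lower in substate 2. EPHA3 went the other way, since 1 of its probes passed the background limit in substate 2 alone (-4.52 and -3.69, at least 1.69-fold higher). EPHA4, which binds ephrins of both classes, was at 0.83 and 1.01. EPHA1 (-0.25) and EPHA2 (-0.12) were lower by small amounts. EPHA10 could not be given a direction, because its measured probes stood at -0.39 and 0.46.

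**Figure D3:**
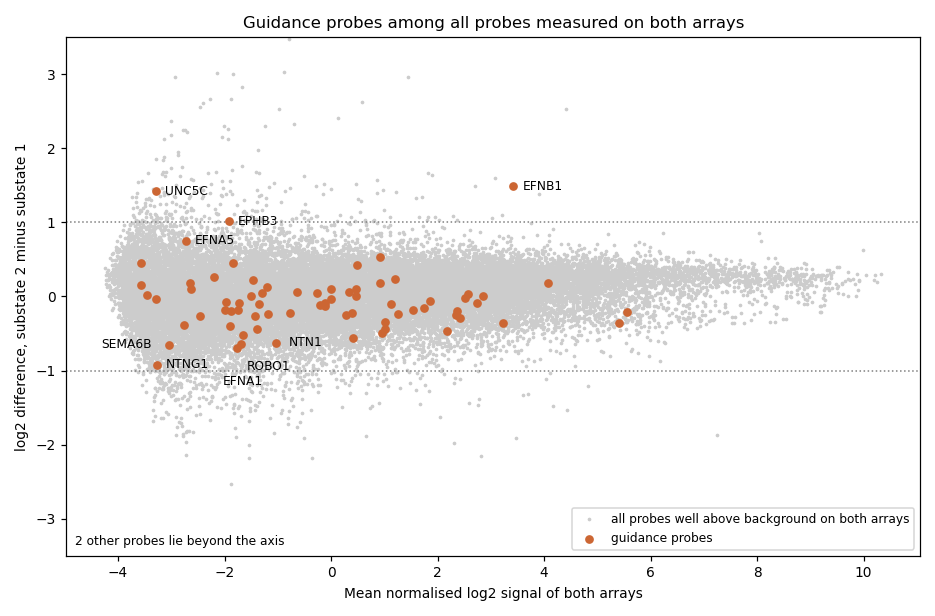
log2 difference (vertical axis) against the mean normalised log2 signal of both arrays (horizontal axis) for all 29883 probes well above background on both arrays (grey) and the 72 guidance probes among them (orange), with dotted lines at 2-fold. EFNB1 lies alone at high signal, whereas UNC5C, EPHB3 and NTNG1 lie where the grey cloud is wide.

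The width of that cloud bears on the higher genes. Among all probes measured on both arrays with a mean level under -2, 1.82% were 2-fold or more higher, against 0.507% of those at -2 or more. UNC5C belongs to the dim probes, EPHB3 lies just above that limit, and EFNB1 is far above it.

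Among genes measured on both arrays, a netrin receptor had the next largest higher value after EFNB1. UNC5C, a repulsive netrin receptor, was at -4.0 in substate 1 and -2.58 in substate 2 (difference 1.42, 2.67-fold higher, Z-score 2.13, rank 48). The raw signals were 19.6 and 45.9, and the level in substate 1 was close to -4.44, the lowest of any probe well above background on that array. Its second probe was near background on both arrays, with levels of -5.31 and -4.84, and gives no fold. Under normexp the difference of UNC5C was 0.60. The remaining measured netrin receptors all lay below 0. UNC5A was at -0.26, UNC5B, which also guides blood vessels, at -0.29 and UNC5D at -0.32 with both of its probes below 0. NEO1, a receptor for netrins and for RGM proteins, was at -0.18, and DCC was near background.

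Netrins had a median of -0.33 over 4 measured genes, the lowest family median. NTNG1, a membrane-anchored netrin-G that binds NGL-1 rather than DCC, was at -2.81 in substate 1 and -3.74 in substate 2. This 1.90-fold lower value was the lowest of the measured guidance genes. Another NTNG1 probe, at -3.85 and -4.84, was near background in substate 2 and at least 1.27-fold lower, and the remaining probe was near background on both arrays. Under normexp background correction the median of the family was -0.06. NTN1, the secreted netrin that attracts commissural axons, was at -0.72 and -1.34 (1.54-fold lower). NTN4, a netrin of basement membranes, was at 0.11 and NTNG2 at -0.03.

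All 5 measured slit and ROBO genes were below 0, with a median of -0.13 that became -0.02 under normexp background correction. ROBO1, the main slit receptor of many tissues, was at -1.41 in substate 1 and -2.11 in substate 2 (1.63-fold lower). SLIT2 was at 0.69 and 0.13 (1.48-fold lower). The other 3 were near 0, at -0.03 for ROBO2, -0.09 for SLIT3 and -0.13 for ROBO3. ROBO2 and ROBO1 are neighbouring genes on chromosome 3, and their values were -0.03 and -0.70. SLIT1 was not measured on both arrays. Its 2 probes passed the background limit in substate 1 and not in substate 2, where they were at least 1.15-fold and 1.39-fold lower.

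The membrane-bound semaphorins had a median of -0.21, and 10 of the 12 measured genes were below the median of all genes, although none differed by 1.5-fold. SEMA5A had the lowest value, at 2.42 in substate 1 and 1.95 in substate 2. SEMA5B, of the same class, had the highest, with 0.18 and 0.43 for its 2 probes. SEMA4C, a ligand of plexin B2, was printed 10 times on each array. Its spots had a mean of 5.67 (SD 0.03) in substate 1 and 5.46 (SD 0.04) in substate 2, a difference of -0.21 with no overlap of the spots. Spots of 1 array share the same RNA, so this shows the precision of the spots and not a spread between cultures. SEMA4D, the ligand of plexin B1 first known from lymphocytes, was lower by both of its probes, at -0.50 and -0.22. SEMA6B was lower by unequal amounts, at -0.65 and -0.10.

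The secreted class 3 semaphorins showed little difference, with a median of 0.01 over 5 measured genes. SEMA3F, which acts through neuropilin 2, was the lowest, at 1.24 in substate 1 and 0.80 in substate 2. SEMA3B was the highest, at 1.08 and 1.32. SEMA3A, the founding repellent of the class, was at 0.06, SEMA3G at 0.01 and SEMA3D at -0.08.

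Semaphorin receptors were the family with the smallest spread, an SD of 0.17 over 9 measured genes. PLXNA4 enters this SD at 0.16, by its 1 measured probe, and its other probes are left out. PLXNA1 was the lowest, at 5.59 in substate 1 and 5.22 in substate 2. PLXNA3 was at -0.19, PLXNB2 at -0.15, PLXNB1 at -0.06, PLXND1 at -0.02 and PLXNB3 at 0.03. NRP1, which also binds VEGF, was at -0.20. NRP2 had no shared direction, with measured probes at -0.19, 0.18 and 0.45.

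PLXNA4, a receptor for class 3 and class 6 semaphorins, is a candidate gene that the study chose in part from these arrays, so its higher value here is not independent evidence. The study also used predicted miRNA targets and RT-PCR for this gene, which are not analysed here. On these arrays the 5 PLXNA4 probes did not behave alike. The probe with the largest difference had levels of -4.48 in substate 1 and -2.73 in substate 2, raw signals of 14.0 and 41.6 and a Z-score of 2.66. It passed the background limit in substate 2 alone, so its fold is a bound, at least 3.28 under the main setting and at least 1.47 under normexp. The probe measured on both arrays was at -3.64 and -3.48, a difference of 0.16. The other 3 were near background on both arrays, and of these 2 were past the Z-score limit (2.18 and 2.45) with raw signals from 3.67 to 13.7.

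**Figure D4:**
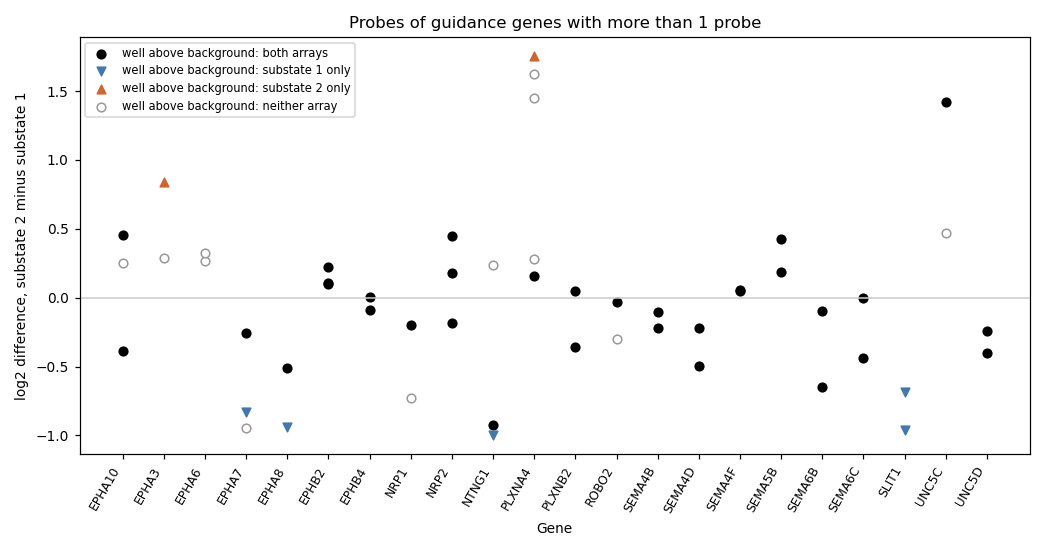
log2 difference (vertical axis) of each probe of the guidance genes with more than 1 probe. Filled circles are probes well above background on both arrays, triangles probes well above background on 1 array and open circles probes near background on both. The PLXNA4 probes run from 0.16 to 1.75, and EPHA10 has measured probes on either side of 0.

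For the 12 guidance genes with 2 or more measured probes the range between probes had a median of 0.26, against 0.18 for the 4236 such genes in all. In 5 of the 12 the probes lay on either side of 0, and in EPHA10 and NRP2 they were more than 0.5 apart with opposite signs. EFNB1, UNC5C, EPHB3, NTNG1, ROBO1, EFNA1, NTN1 and EFNA5 have 1 measured probe each.

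Genes that work with these ligands and receptors were taken from 2 further lists, of other cues and co-receptors and of intracellular effectors. Of their 94 genes 93 were on the array and 86 were measured. Only DPYSL5, a growth cone protein of the CRMP family, was 2-fold higher (2.71-fold, 1.16% of the 86 against 0.931% of all genes), and 0 were 2-fold lower. The median of these 86 genes was 0.11, near the 0.08 of all measured genes, and 66.3% were above 0, against 59.8% of all. Below the median of all genes lay 47.7% of them. The 2 lists differed. Among the 63 measured effectors the median was 0.16, 46 were above 0 and 25 lay below the median of all genes. Among the 23 measured cues and co-receptors the median was -0.0015, 11 were above 0 and 16 lay below the median of all genes. At 1.5-fold 5 of the 86 genes (5.81%) were higher, against 4.32% of all genes, and 1 (1.16%) was lower, against 5.03%. Besides DPYSL5 these were, named after their values were seen, FARP2 (0.94), LRRC4B (0.85), LRRC4 (0.81) and DRAXIN (0.78), with ABLIM3 (-0.60) on the lower side. FARP2 links plexins to small GTPases, DRAXIN is a repellent that binds netrin receptors, and LRRC4 is itself a netrin-G ligand. Also named after their values were seen, FLRT3, of a family that binds UNC5 receptors, was at least 2.99-fold higher, and DSCAM, a netrin-binding adhesion receptor, at least 2.66-fold higher, both of them near background in substate 1.

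**Figure D5:**
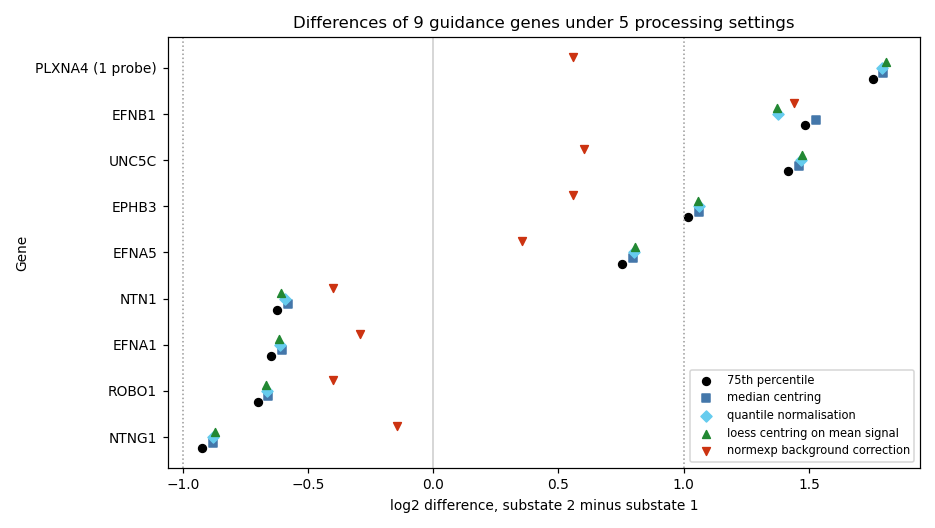
log2 difference, substate 2 minus substate 1 (horizontal axis), of 8 guidance genes and of the PLXNA4 probe with the largest difference, under 5 ways of processing the same arrays, with dotted lines at 2-fold. EFNB1 stays between 1.37 and 1.53, whereas the normexp values of the dimmer genes lie closer to 0.

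Normexp, with an offset of 50 and with median spot signals in place of the processed signals, moved the dim genes most. Which of these changes moved them was not tested. Under this setting the difference of EFNB1 was 1.44, whereas UNC5C (0.60), EPHB3 (0.56) and PLXNA4 (at least 1.47-fold higher) were inside 2-fold. NTNG1 then stood at -0.14, EFNA1 at -0.29 and EFNA5 at 0.35, and both ROBO1 and NTN1 at -0.40.

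Markers of the labelled cells and of cells that could accompany them were read on the same arrays, and their part in the guidance values was not tested. The summed scaled signal of a list is dominated by its brightest probes, so the median difference of its measured genes stands beside it. All 8 pluripotency markers on the array were well above background on both arrays, with sums of 966 in substate 1 and 1156 in substate 2 and a median of 0.23. VIM, which marks substate 2, differed by 2.53.

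Of 10 neural progenitor markers 5 were well above background in substate 1 and 8 in substate 2. Their median was 0.92 over 5 measured genes, of which LHX2 (2.32) and FABP7 (1.44) were 2-fold higher. That median is the value of DLK1, whose probes differed (1.69 and 0.15). NES was higher by less (0.33 and 0.43 by its probes), and OTX2 was at -0.04. POU3F2 was higher by a bound of 3.73 on the log2 scale, taken against its own near-background signal in substate 1. The sums of the list, 25.6 and 36.0, were carried mostly by NES, and PAX6 and ZIC1 were near background on both arrays. Neuron markers had a median of 0.40, with sums of 46.7 and 58.9 and 7 of 10 well above background on each array. STMN2 (1.45) and MAP2 (1.03) were 2-fold higher, whereas SYT1 was lower by both of its probes (-0.27 and -1.22). The remaining measured neuron markers were higher by less than 2-fold, and ELAVL3, ELAVL4 and NEUROD1 were near background on both arrays. Neural crest markers had a median of 0.06, with sums of 6.27 and 6.92 and 5 of 8 detected on each array, and PAX3, TFAP2A and TFAP2B were near background.

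Endothelial markers were split, with a median of 0.01. KDR (-0.71) and TEK (-0.93) were lower, TIE1 (0.50) and CDH5 (0.32) were higher, the sums were 7.17 with 7 of 8 detected and 5.20 with 6, and PECAM1 was near background on both arrays. Mesenchymal markers had a median of -0.11 with 5 of 8 detected on each array. Their sums of 169 and 154 were carried mostly by THY1 (-0.11). COL1A1 (-0.49) and COL1A2 (-0.50) were also lower. PDGFRB (0.06 and 0.36 by its probes) and PDGFRA (0.65) were higher, and PDGFRA was dim, at -4.21 in substate 1. COL3A1, DCN and LUM were near background. Of 8 mesendoderm markers 2 were detected in substate 1 and 1 in substate 2, with sums of 0.199 and 0.274. FOXA2, the single one measured on both arrays, differed by 0.77, and TBXT, MIXL1, EOMES, GSC, SOX17 and GATA6 were near background.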

How the data were processed

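Total RNA of 1 sample per substate was hybridised to 1 single-colour Agilent array each. The authors deposited scanner files with an intensity per spot, made per the file headers by Agilent Feature Extraction 11.5.1.1 (protocol GE1_1105_Oct12), which subtracts background. The authors also deposited a matrix of log2 values from GeneSpring GX. It differed from the values computed here by a constant per array for 100% of probes within 0.01.

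Intensities under 1 were set to 1 and outlier spots dropped. The log2 values of a probe were averaged over spots and the 75th percentile of the array was subtracted. Z-scores used the mean and SD over all 58201 probes. Where a probe passed the background limit on 1 array, its fold is a bound, taken against the larger of the dim probe's signal and the smallest signal past that limit on the dim array. Some probes above that smallest signal were still not well above background, such as GSC at -3.99 against -4.20 in substate 2. The bound is therefore not a firm floor. Python 3.11.15, numpy 2.4.6, pandas 2.3.3, matplotlib 3.10.9, R 4.3.3 and limma 3.58.1 were used, and the scripts were tested on simulated data. Alternatives were median centring, quantile normalisation, loess centring (span 0.3), normexp correction (offset 50), the deposited matrix, outlier spots kept, and other limits for the Z-score. Normexp used the median signal of a spot in place of the mean signal that was planned. Names came from RefSeq (GRCh38.p14), which matched 31104 probes (53.4%), and array coordinates were not used. Each family was described by its genes past a limit, its highest and lowest measured gene, genes whose probes disagreed and PLXNA4. Members and lists were chosen with earlier results of these data known.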

Additional observations from a re-analysis of the deposited data

How the results depend on the processing

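No paired analysis was possible because 1 array stands for each substate, and no replicate could be left out. Of the 268 values computed under the alternatives, 34 moved by more than the spread used as error, most of them under normexp background correction. The other 234 moved by less, but many of them could hardly move. The deposited matrix differs from the main values by a constant per array. A gene with 1 measured probe keeps that probe when the brightest probe stands for the gene. The count of 234 is therefore not a measure of stability. No difference past 2-fold changed sign. Under normexp the difference of an EPHA8 probe went from -0.94 to 0.06 and that of the second NTNG1 probe from -0.996 to 0.006. Guidance probes past the upper Z-score limit were 5 by the main setting. They were 8 when the Z-score was set by probes measured on both arrays, 8 with an SD from the median absolute deviation, and 3 when members had to be well above background on at least 1 array, an alternative chosen after seeing the data. Past the lower limit there were 0, against 7 under normexp correction, 8 with the Z-score set by probes measured on both arrays and 11 with the median absolute deviation. Probes 2-fold or more higher were 4 by the main setting and 1 under normexp correction, that of EFNB1. No guidance probe was 2-fold lower under any alternative run. Under normexp the bounds of EPHA8 and of the second NTNG1 probe were lost. The other bounds became smaller, at 1.08-fold for EPHA7, 1.13-fold for EFNA2, 1.26-fold for EPHA3, 1.03-fold and 1.05-fold for SLIT1 and 1.47-fold for PLXNA4. The median of the guidance genes lay between -0.14 and -0.05 and that of all genes between 0.03 and 0.13, and 39 to 44 of the 58 genes were below the latter. Loess and quantile normalisation gave the 39. Spot noise and signal near background limit the dim genes most.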

Other observations

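The promoter windows of the guidance genes were rich in G and C. Their median GC content was 65.2% over 94 windows, against 58.7% over the 35116 windows of all genes, and the median number of CpG pairs in 300 bases was 21.5 against 14. The guidance genes are all protein-coding, whereas the windows of all genes cover 27305 symbols and were not filtered by gene type. The part of this in the difference was not tested. Windows of the 51 guidance genes with a probe well above background had a median of 66.7% GC, and those of the 9 genes near background on both arrays had 59.8%. Windows share starts and genes and are not independent, and the counts describe sequence alone.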
